A study of Homo sapiens with 36 samples.

Results

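HN6 cells that carried an ACLY plasmid were set against HN6 cells given IL-8, with 3 libraries on each side, 6 of the 36 libraries of the study. The 6 were picked by their labels, though the comparison was set with earlier results of these data known. HN6 is an established line from a squamous carcinoma of the head and neck. 1 group was transfected with a plasmid encoding ACLY, and the other received 100 ng/ml IL-8 for 24 h. Each belonged to its own experiment with its own control, 3 libraries of HN6 with the vector plasmid and 3 of untreated HN6, and these 6 control libraries were used to ask whether both experiments started from the same place. The cells of all 12 libraries were grown in DMEM whose serum had been depleted of exosomes. The time from transfection to harvest is not given in the sources used here, and neither is whether the 3 libraries of a group came from separate cultures. The p-values therefore rest on how much libraries of a group differed, and that spread may be purely technical. RNA was read in bulk, so fewer cells making a transcript and less transcript per cell cannot be told apart.

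ATP citrate lyase, the product of ACLY, splits cytosolic citrate into oxaloacetate and acetyl-CoA, the carbon source of fatty acid and cholesterol synthesis and the donor for histone acetylation. IL-8, encoded by CXCL8, is an ELR chemokine that binds the receptors CXCR1 and CXCR2 and is best known for drawing neutrophils into tissue. Carcinoma cells often make it themselves under NF-kB control. The comparison asks which transcripts an enzyme at the root of lipid synthesis and a chemokine move alike in 1 cell line, and which they move apart.

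A direct comparison of the groups carries any difference between the experiments, so the controls were compared first. Vector and untreated HN6 were close. Of 16698 genes tested, 5 (0.0299%) differed between vector and untreated libraries at an edgeR adjusted p under 0.05, all lower with the vector, against 941 at an unadjusted p under 0.05 and 8 called by DESeq2. The 5 were the pseudogenes AC010343.1, PTMAP5 and RPL3P4, the ribosomal protein gene RPS28, and SEC61G, a subunit of the channel through which proteins enter the endoplasmic reticulum. Leaving out vector replicate 2 raised the count to 14 and leaving out vector replicate 3 lowered it to 1. The median absolute log2 difference over all genes was 0.0748 between the controls and 0.314 between the ACLY plasmid and IL-8 groups. In a chi-square test of raw counts over genes, the statistic per degree of freedom ran from 2.39 to 7.20 for the 9 vector and untreated pairs, inside the 2.13 to 7.83 of the 12 pairs within a group, and from 18.8 to 79.5 for the other 45 pairs. Pairs within the treated groups ran from 2.13 to 2.74 and those within the control groups from 2.67 to 7.83, so the controls set the upper end. Vector replicate 1 lay nearer untreated replicate 2 (3.59) than vector replicates 2 and 3 (5.72 and 5.22).

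The ribosomal protein gene RPS28 was the 1 protein-coding gene called both between the controls and between the treatments, and not in the difference of their responses. The pseudogenes AC010343.1 and PTMAP5 did the same. Its level was 41.3, 36.9 and 42.0 CPM with the ACLY plasmid, 60.5, 57.1 and 59.8 CPM with IL-8, 35.2, 40.7 and 41.5 CPM with the vector and 54.8, 47.4 and 51.5 CPM in untreated cells. The ACLY plasmid libraries lay below all IL-8 libraries, and the vector libraries lay below all untreated ones. The log2 difference was -0.56 between the treatments (edgeR adjusted p = 2.75e-08) and -0.39 between the controls (edgeR adjusted p = 0.0165), and the difference of the 2 responses was -0.17 (edgeR adjusted p = 0.188). The difference of responses, ACLY plasmid over vector minus IL-8 over untreated, takes the controls out of the direct comparison. Each gene described below as higher or lower with the ACLY plasmid was called with the same sign in it too, with some exceptions. These are ABCA1, ASNS, CD14, CD81, DDIT3, GAPDH, MT-ND5, MT-ND6, PLIN4, PPARG, VPS4A and RPS28. Where a list's count there differs from its direct count by more than 1.5 times, both are given.

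Library totals ran from 17203673 to 19472634 counts over the 12 libraries, and 3 counts, the limit that a count of 0 allows, correspond to 0.154 to 0.174 CPM, the count scaled to a common library size. These limits cover counting error only. The libraries with the ACLY plasmid held more genes with at least 10 counts (16248 to 16602) than the IL-8 libraries (15719 to 15965) and the controls (15296 to 15594). Mitochondrial genes took 5.58% to 5.75% of their counts, against 4.50% to 4.94% with IL-8 and 4.17% to 4.77% in the controls. Genes of high level in HN4 alone (27 genes) had a median of 0 in every HN6 group relative to their line of origin, and those of Cal27 (38 genes) at most 0.00198. The part of depth and mitochondrial share in the differences below was not tested.

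ACLY itself stood 9.88 times higher with the plasmid. Its level was 2208, 2192 and 2087 CPM in the ACLY plasmid libraries and 268, 261 and 261 CPM with the vector. With IL-8 it was 216, 221 and 219 CPM, against 278, 272 and 271 CPM in untreated cells. The ACLY plasmid libraries lay far above all others, and the IL-8 libraries lay below every untreated library. The direct log2 difference was 3.31 ± 0.04 (SE; edgeR adjusted p = 3.40e-35), with changes of 3.04 over vector and -0.32 under IL-8. Counts from the plasmid and from the gene on chromosome 17 (hg38, 41866908 to 41930542, minus strand) cannot be told apart in these tables. The receptors of IL-8 were at the limit of detection. CXCR1 had 1 count in all, in an IL-8 library. CXCR2 had 8 counts over the 3 ACLY plasmid libraries, 13 over the 3 with IL-8, and at most 0.367 CPM in any library. Neither was called between the treated groups (edgeR adjusted p = 0.470 and 0.520), and at this depth a difference was hardly detectable.

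Between the ACLY plasmid and IL-8 groups, 8775 of 16698 genes (52.6%) differed at an edgeR adjusted p under 0.05. Of these, 4367 (26.2%) were higher with the ACLY plasmid and 4408 (26.4%) were lower. Among the 1493 that differed by at least 2-fold, 1090 were higher and 403 lower. The median log2 difference over all genes was 0.01. Groups did not overlap, 3 libraries against 3, for 5225 genes in the higher direction (31.3%) and 5119 in the lower (30.7%), 61.9% in all. The difference of responses was called for 6053 genes (36.2%), 2939 higher (17.6%) and 3114 lower (18.6%). Of these, 5910 were called with the same sign in the direct comparison and none with the opposite sign. Both comparisons hold the same treated libraries and the controls were close, so shared signs are not separate support.

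**Figure D1:**
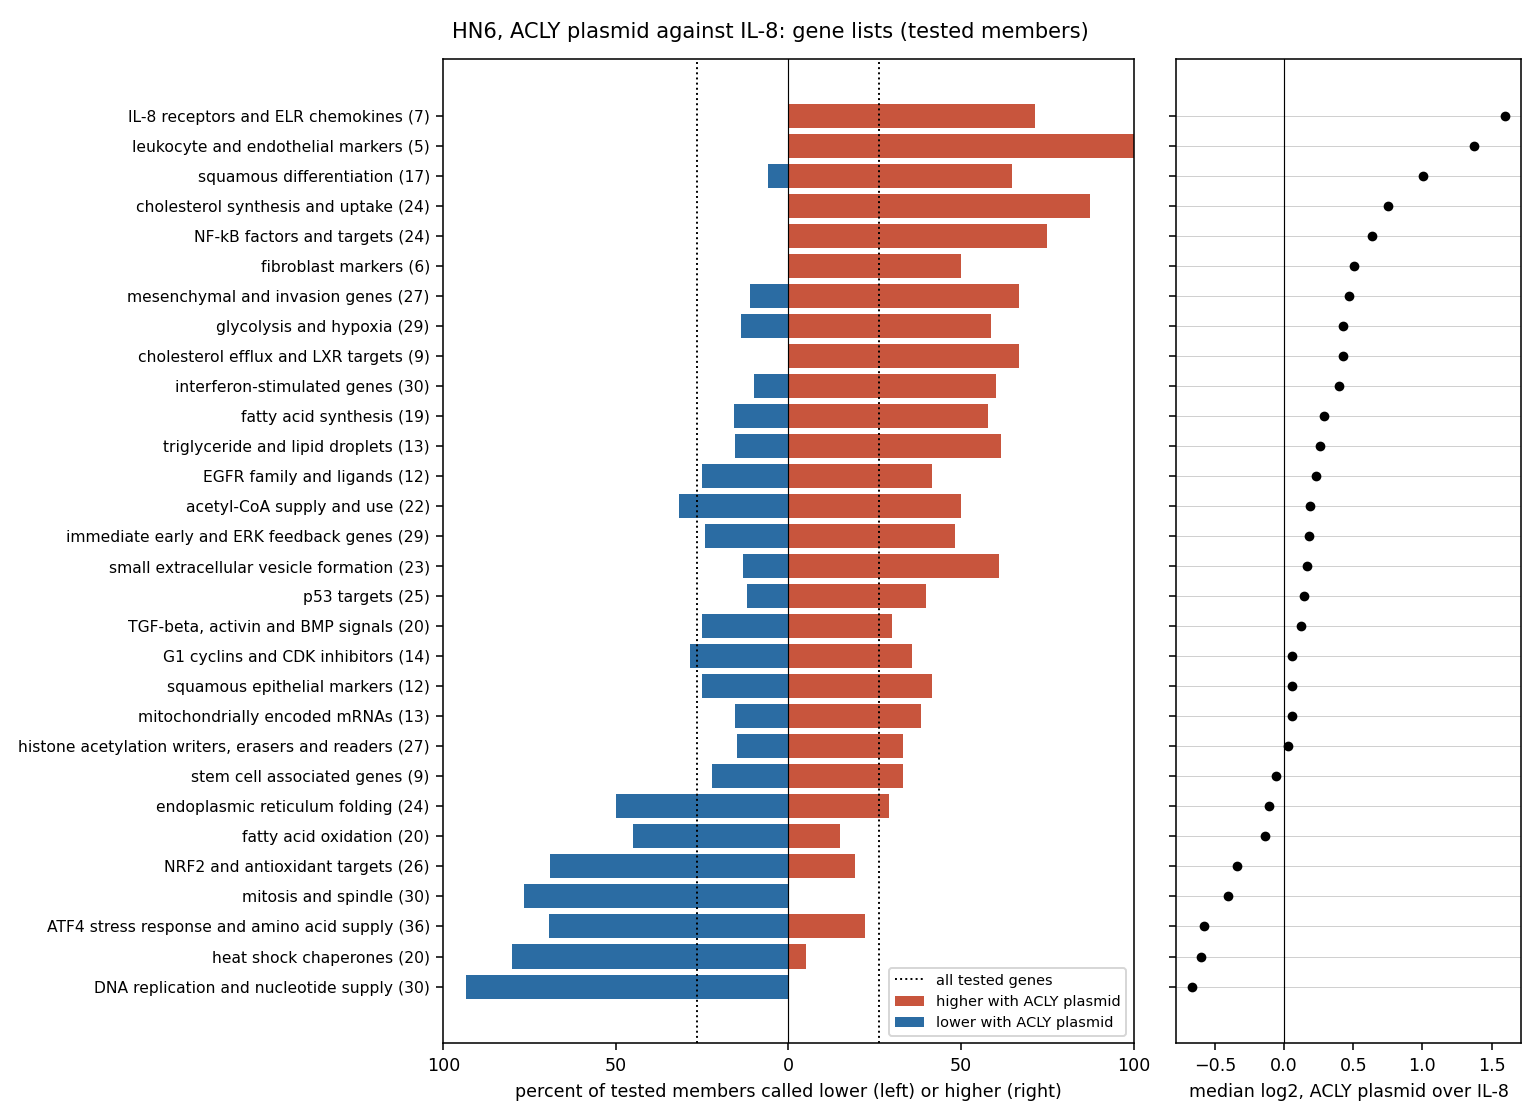
For 30 gene lists in HN6, the percent of tested members called higher (right) or lower (left) with the ACLY plasmid than with IL-8 at an edgeR adjusted p under 0.05 (left panel, number tested in brackets, dotted lines at the 26.2% and 26.4% of all genes), and the median log2 difference (right panel). The ELR chemokine list lies at the top, with a median of 1.60, and DNA replication at the bottom, with -0.67.

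Many genes moved the same way under both. The ACLY plasmid changed 9993 genes against its vector (59.8% of those tested, 4986 or 29.9% up and 5007 or 30% down) and IL-8 changed 6164 against untreated cells (36.9%, 2629 or 15.7% up and 3535 or 21.2% down). These 2 responses share no library. 4761 genes were called in both, which is 47.6% of the ACLY plasmid calls and 77.2% of the IL-8 calls. Of those, 4193 went the same way (1760 up and 2433 down) and 568 went opposite ways, 362 up with the ACLY plasmid and down with IL-8 and 206 the reverse. Where the direction was shared, the ACLY plasmid change was the larger in 3252 genes. Across the 16698 genes, which are not independent replicates, Pearson's r between the responses was 0.473 and Spearman's rho 0.490. Among the 4367 genes higher with the ACLY plasmid, 2111 rose against vector with no call for IL-8, 862 rose under both and 476 fell under IL-8 with no call for the plasmid. Among the 4408 lower genes, 1799 fell with the plasmid alone being called, 1482 fell under both and 385 rose under IL-8 alone.

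**Figure D2:**
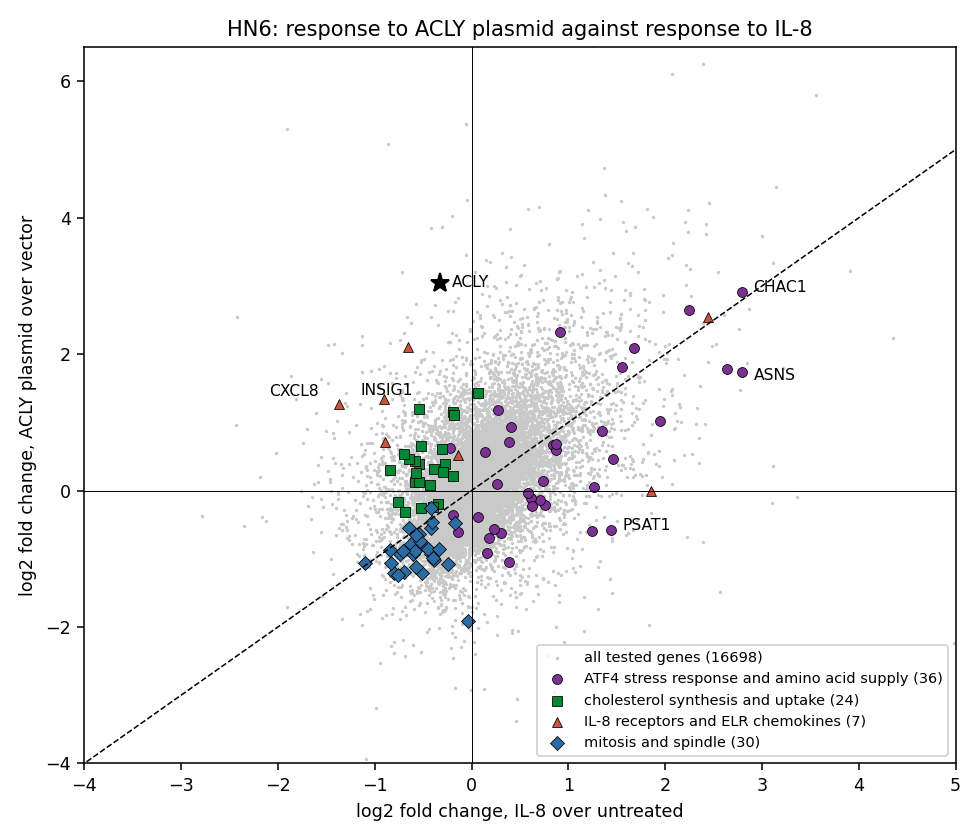
Log2 fold change of each tested gene under IL-8 (over untreated, x axis) against that under the ACLY plasmid (over vector, y axis) in HN6, with 4 gene lists in colour, ACLY as a star, and the dashed line where both are equal. 4 genes lie outside the axes. The mitosis genes sit in the lower left, where both responses are below 0, the ELR chemokines CXCL8 and CXCL1 and most cholesterol genes sit at the upper left, and the ATF4 genes reach from the upper to the lower right. The 2 triangles on the right are CXCR1 and CXCR2, whose fitted changes rest on a handful of counts.

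The list of IL-8 receptors and ELR chemokines had the largest median difference of the 30 lists. Of its 10 genes 7 were tested, 5 ligands and both receptors, and the 5 ligands were all higher with the ACLY plasmid, with a median log2 of 1.60 over the 7. All 5 rose over vector, while 4 fell under IL-8 and none rose. CXCL8, the gene of IL-8 itself, was at 452, 452 and 458 CPM with the ACLY plasmid and at 72.2, 69.6 and 70.1 CPM with IL-8. Controls lay between, at 200.5, 184 and 182 CPM with vector and 164, 191 and 191 CPM untreated, and overlapped neither treated group. The direct log2 difference was 2.68 ± 0.05 (SE; edgeR adjusted p = 1.07e-28), with 1.27 over vector and -1.36 over untreated. CXCL6, a ligand of both receptors, was at 42.2, 33.9 and 42.7 CPM with the ACLY plasmid against 6.46, 5.92 and 5.46 CPM with IL-8, without overlap. Directly it differed by log2 2.73 ± 0.11 (SE; edgeR adjusted p = 2.05e-20). CXCL1, CXCL2 and CXCL3, ligands of CXCR2 whose sequences are alike enough that shared reads leave them uncertain, had direct log2 differences of 2.17, 1.60 and 0.81. In the ACLY plasmid and IL-8 responses CXCL1 changed by log2 1.35 and -0.91, and CXCL2 by 0.71 and -0.90. ACKR1, CXCL5 and PPBP did not pass the filter on low counts.

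NF-kB factors and their targets were mostly higher with the ACLY plasmid. The list shares no member with that of the chemokines. Of its genes, 18 of 24 tested members (of 26 listed) were higher with the ACLY plasmid and none lower, with a median log2 of 0.64, and in the responses 18 rose and 1 fell with the plasmid while 2 rose and 12 fell with IL-8. SOD2, the mitochondrial superoxide dismutase, was at 484, 492 and 493 CPM against 130.5, 138 and 137 CPM, with 167, 162 and 149.8 CPM in vector and 155, 147 and 162 CPM in untreated libraries. Its direct log2 difference was 1.86 ± 0.05 (SE; edgeR adjusted p = 5.77e-26), with 1.62 over vector and -0.20 under IL-8. TNF, the inflammatory cytokine, moved in both responses. It was at 32.8, 28.1 and 28.9 CPM with the ACLY plasmid and 9.86, 8.75 and 10.3 CPM with IL-8, a log2 change of 0.50 over vector and -1.25 under IL-8. The cytokine genes IL6 and CSF2 and the inhibitor of apoptosis BIRC3 also rose under 1 and fell under the other, with direct log2 differences of 1.40, 1.58 and 1.36. PTGS2, the inducible cyclooxygenase, was higher by log2 1.60, with no IL-8 change called (log2 0.02). The feedback inhibitors TNFAIP3 and NFKBIA, which are themselves NF-kB targets, were higher by log2 1.30 and 0.83. IL1A, which encodes interleukin-1 alpha, rose under both, by log2 1.73 with the plasmid and 0.76 with IL-8. Of the factors, RELA was higher by log2 0.28 and NFKB1 showed no call (log2 0.03; edgeR adjusted p = 0.746).

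**Figure D3:**
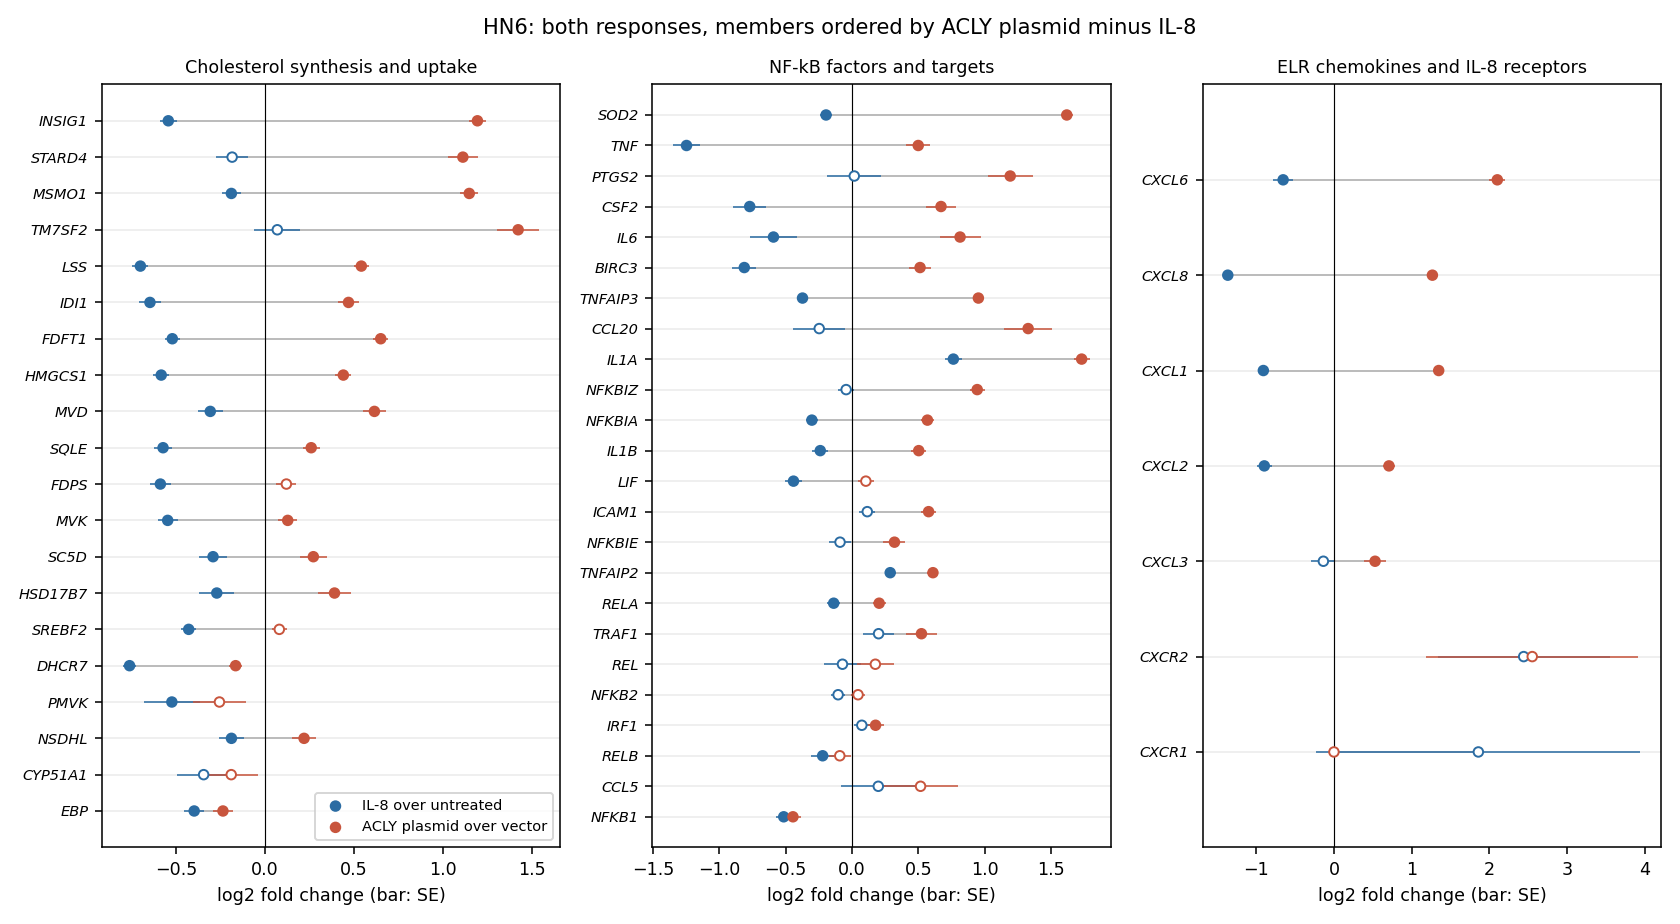
Log2 fold change of tested members of 3 gene lists under IL-8 (over untreated, blue) and under the ACLY plasmid (over vector, red), with the standard error as a bar, filled points for an edgeR adjusted p under 0.05, and genes ordered by the direct difference. Red points lie to the right of blue ones for nearly all members, and for most cholesterol genes and the 5 tested chemokine ligands the 2 colours fall on opposite sides of 0.

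Cholesterol synthesis and uptake genes, targets of the sterol-sensing factor SREBP2, were set apart in the same way. Of 24 members, all tested, 21 were higher with the ACLY plasmid and none lower, with a median log2 of 0.75 against 0.01 over all genes. The ACLY plasmid raised 17 and lowered 3, and IL-8 lowered 21 and raised none. INSIG1, the sterol sensor that holds SREBP in the endoplasmic reticulum, was at 198, 193 and 197 CPM against 61.4, 61.1 and 61.0 CPM, with 88.0, 84.8 and 84.4 CPM in vector and 88.0, 90.9 and 88.7 CPM in untreated cells. The groups did not overlap, and the controls lay between them. Directly INSIG1 differed by log2 1.68 ± 0.05 (SE; edgeR adjusted p = 1.02e-24), with 1.20 over vector and -0.54 over untreated. Early enzymes such as HMGCS1, MVD and IDI1 were higher by log2 1.08, 1.08 and 1.17, and FDFT1 and LSS, which make squalene and close its rings, by 1.14 and 1.22. STARD4, a sterol carrier, and MSMO1, a demethylating oxidase, were higher by log2 1.38 and 1.37. For the reductase DHCR7 the level fell under both treatments, with log2 changes of -0.76 under IL-8 against -0.17 with the plasmid. CYP51A1, EBP and PMVK were not called, at log2 0.16, 0.10 and 0.34. The letters TCACNCCAC of the sterol element, on either strand, occurred in 1 of 18 RefSeq promoters matched to the list (250 bases before to 50 after the start) (5.56%), that of SREBF2, and in 313 of 27305 promoters of all genes (1.15%).

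Of the genes for cholesterol efflux and targets of the oxysterol receptors LXR, 6 of 9 tested (10 listed) were higher with the ACLY plasmid and none lower, with a median log2 of 0.43, against 3 in the difference of responses. ABCA1, the main efflux pump, rose under both. It went from 0.876 to 7.14 CPM with the ACLY plasmid and from 1.14 to 5.31 CPM with IL-8, and the difference of responses was not called (log2 0.81; edgeR adjusted p = 0.0563).

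Fatty acid synthesis genes were split less cleanly. 11 of 19 tested members (20 listed) were higher with the ACLY plasmid and 3 lower, with a median log2 of 0.29. SCD, the desaturase that makes oleate, led with 1805, 1764 and 1736 CPM with the ACLY plasmid against 598, 614 and 611 CPM with IL-8. Vector libraries were at 1087, 1015 and 978 CPM and untreated ones at 1024, 1080 and 1032 CPM, between the treated groups. The direct log2 difference was 1.54 ± 0.04 (SE; edgeR adjusted p = 1.58e-25), with 0.78 over vector and -0.78 under IL-8. FASN, the fatty acid synthase, was higher by log2 0.54, SREBF1, its transcription factor, by 0.59, and the acyl-CoA synthetase ACSL1 by 0.86. ACACA, the carboxylase that takes acetyl-CoA into the pathway, fell under both, with log2 changes of -0.21 with the plasmid and -0.48 with IL-8. Lower with the ACLY plasmid were FABP5, a fatty acid carrier at 6.89, 6.18 and 7.31 CPM against 13.9, 14.2 and 12.6 CPM, the elongase ELOVL5 and the lipid factor PPARG (the last 2 by log2 -0.36 and -0.33). Among triglyceride and lipid droplet genes, 8 of 13 tested (17 listed) were higher and 2 lower, with a median of 0.26, against 4 and 0 in the difference of responses. LPIN1, a phosphatidate phosphatase, was higher by log2 1.15 ± 0.05 (SE). The droplet genes HILPDA and PLIN4 were higher by log2 0.72 and 0.74, the latter at under 5 CPM and no longer called without ACLY plasmid replicate 3 or IL-8 replicate 1. PLIN4 differed as much between vector and untreated cells (log2 0.77, not called), and its responses were alike, at 0.69 with the plasmid and 0.72 with IL-8. Fatty acid oxidation leaned the other way, with 3 higher and 9 lower of 20 tested (22 listed) and a median of -0.14. In the difference of responses 1 was higher and 7 lower. The isomerases ECI1 and ECI2 were lower (log2 -0.60 and -0.47), with rises under IL-8 of 0.46 and 0.45, and so was CPT1A, the gate of mitochondrial import (log2 -0.29).

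Of 22 genes of acetyl-CoA supply and use, 11 were higher and 7 lower with the plasmid, beside 26.2% and 26.4% over all genes. ACLY, higher by design, is 1 of the 11. The list had a median log2 of 0.19. ACSS2, which makes acetyl-CoA from acetate, was at 107, 106 and 105 CPM against 59.0, 64.9 and 63.0 CPM, without overlap, and higher by log2 0.77. SLC25A1, the citrate carrier of the mitochondrion, was higher by log2 0.47, while citrate synthase, CS, was lower (log2 -0.47) and fell under both treatments. Histone acetylation genes had a direct median near that of all genes, at 0.03. Of 27, 9 were higher and 4 lower (6 and 2 in the difference of responses), beside the same shares over all genes. In the responses the plasmid raised 7 and lowered 11, and IL-8 raised 2 and lowered 13. The acetyltransferase gene KAT2B and the deacetylase gene HDAC9 were higher by log2 0.88 and 0.87, and HAT1, which acetylates new histones, was lower (log2 -0.76).

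Most genes of the ATF4 programme were higher with IL-8 than with the ACLY plasmid. These are the genes of amino acid supply and stress that the factor ATF4 turns on when amino acids are short or the endoplasmic reticulum is loaded. Of 36 tested members (38 listed), 25 were lower with the ACLY plasmid and 8 higher, with a median log2 of -0.58. IL-8 raised 29 and lowered 3, whereas the ACLY plasmid raised 18 and lowered 14. 12 members were called in opposite directions and 17 in the same. PSAT1, an enzyme of serine synthesis, was at 427, 418 and 438 CPM with IL-8 and at 102, 99.6 and 108 CPM with the ACLY plasmid. Vector and untreated libraries lay between, at 157, 159.9 and 144 CPM and 164, 155 and 155 CPM, and none of these ranges overlapped the treated groups. The direct log2 difference was -2.05 ± 0.05 (SE; edgeR adjusted p = 6.27e-27), with 1.44 under IL-8 and -0.58 under the plasmid.

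SLC7A11, the cystine importer, was at 70.9, 75.2 and 78.5 CPM with IL-8 and 21.5, 17.9 and 20.6 CPM with the ACLY plasmid, and again the controls lay between, at 30.6, 27.0 and 33.5 CPM and 31.3, 36.7 and 27.0 CPM. Its direct log2 difference was -1.90 ± 0.09 (SE; edgeR adjusted p = 1.25e-14). SLC7A5 and SLC3A2, which form the importer of large neutral amino acids, were lower (log2 -1.49 and -0.88), and so was the glutamine carrier SLC1A5 (log2 -0.93). All 3 fell against vector and rose under IL-8. PHGDH, the first enzyme of serine synthesis, rose under IL-8 (log2 1.26), with no call for the plasmid (log2 0.05). MTHFD2 and SHMT2, of mitochondrial folate metabolism, were lower (log2 -1.07 and -0.87). The tRNA synthetase genes AARS, GARS, SARS, WARS and CARS were lower (log2 -0.94, -0.94, -0.71, -0.67 and -0.57), and all 5 rose under IL-8.

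A second set within the list went up under both. CHAC1, which degrades glutathione, was at 8.41, 8.76 and 7.01 CPM with the ACLY plasmid and 7.79, 8.28 and 8.56 CPM with IL-8, against 1.06 and 1.18 CPM in the controls. The treated groups overlapped, and the direct difference was -0.03 ± 0.15 (SE; edgeR adjusted p = 0.891). ASNS, asparagine synthetase, rose by log2 1.73 with the plasmid and 2.79 with IL-8. It was lower with the ACLY plasmid (log2 -1.15; edgeR adjusted p = 5.35e-05), but the difference of responses, -1.06, was not called (edgeR adjusted p = 0.0539). That value passed the threshold without untreated replicate 1, IL-8 replicate 1 or vector replicate 3, or with all 36 libraries in 1 fit. ASNS levels were low, at 2.12 and 4.72 CPM. GDF15, a stress cytokine, was instead higher with the ACLY plasmid, at 85.4, 85.2 and 83.8 CPM against 28.2, 30.4 and 29.5 CPM. GDF15 differed by log2 1.53 ± 0.07 (SE; edgeR adjusted p = 1.26e-18). The mTORC1 inhibitor DDIT4 was higher by log2 0.50, the amino acid carrier SLC38A2 by 0.90 and ATF3 by 0.72. DDIT3, which encodes CHOP, was higher by log2 0.32, a call lost when IL-8 replicate 2 or 3 or ACLY plasmid replicate 2 or 3 was left out, or with all 36 libraries in 1 fit. ATF4 itself was lower, at 374, 357 and 349.7 CPM against 435, 431 and 431 CPM, a direct log2 difference of -0.26 (edgeR adjusted p = 2.24e-06). Its difference of responses, -0.17, lost its call without IL-8 replicate 1, vector replicate 2 or ACLY plasmid replicate 3. ATF4 is known to be set mainly by translation, which these data do not measure.

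The promoters of the ATF4 list were read for the letters of the factor's site. ATF4 binds with C/EBP partners to composite sites, and the letters TGATGNAAN, where N is any base, were searched on both strands from 250 bases before to 50 after each start in RefSeq promoters (GRCh38.p14). Of 38 listed genes 32 had a promoter there, and 8 of the 32 (25%) held a match, against 1002 of 27305 (3.67%) of all promoters of that length. The windows below show the match in capitals, with bases on either side, 5′ to 3′ on the gene's strand, for 4 members with a match before the start whose responses differ. The window of ASNS lies at chr7:97872448-97872496 on the minus strand and that of CHAC1 at chr15:40953241-40953289 on the plus strand. The one of ATF3 lies at chr1:212565196-212565244 on the plus strand and the one of AARS (AARS1 in RefSeq) at chr16:70289666-70289714 on the minus strand. In CHAC1 and AARS the match is on the opposite strand, so its letters read as the reverse complement.
ASNS: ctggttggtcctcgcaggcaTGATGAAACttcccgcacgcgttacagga
CHAC1: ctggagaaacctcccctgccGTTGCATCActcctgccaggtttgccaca
ATF3: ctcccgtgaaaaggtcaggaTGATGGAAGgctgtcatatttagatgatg
AARS: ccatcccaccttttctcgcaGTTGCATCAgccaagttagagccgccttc

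The 4 were chosen to show that members with a match did not share 1 response. The log2 changes with the ACLY plasmid and then IL-8 were 2.91 and 2.79 for CHAC1, 1.73 and 2.79 for ASNS, -0.21 and 0.75 for AARS, and 1.18 and 0.28 for ATF3, whose IL-8 value was not called. PSAT1 had no match in this window. A match is a description of the letters and not a bound site.

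**Figure D4:**
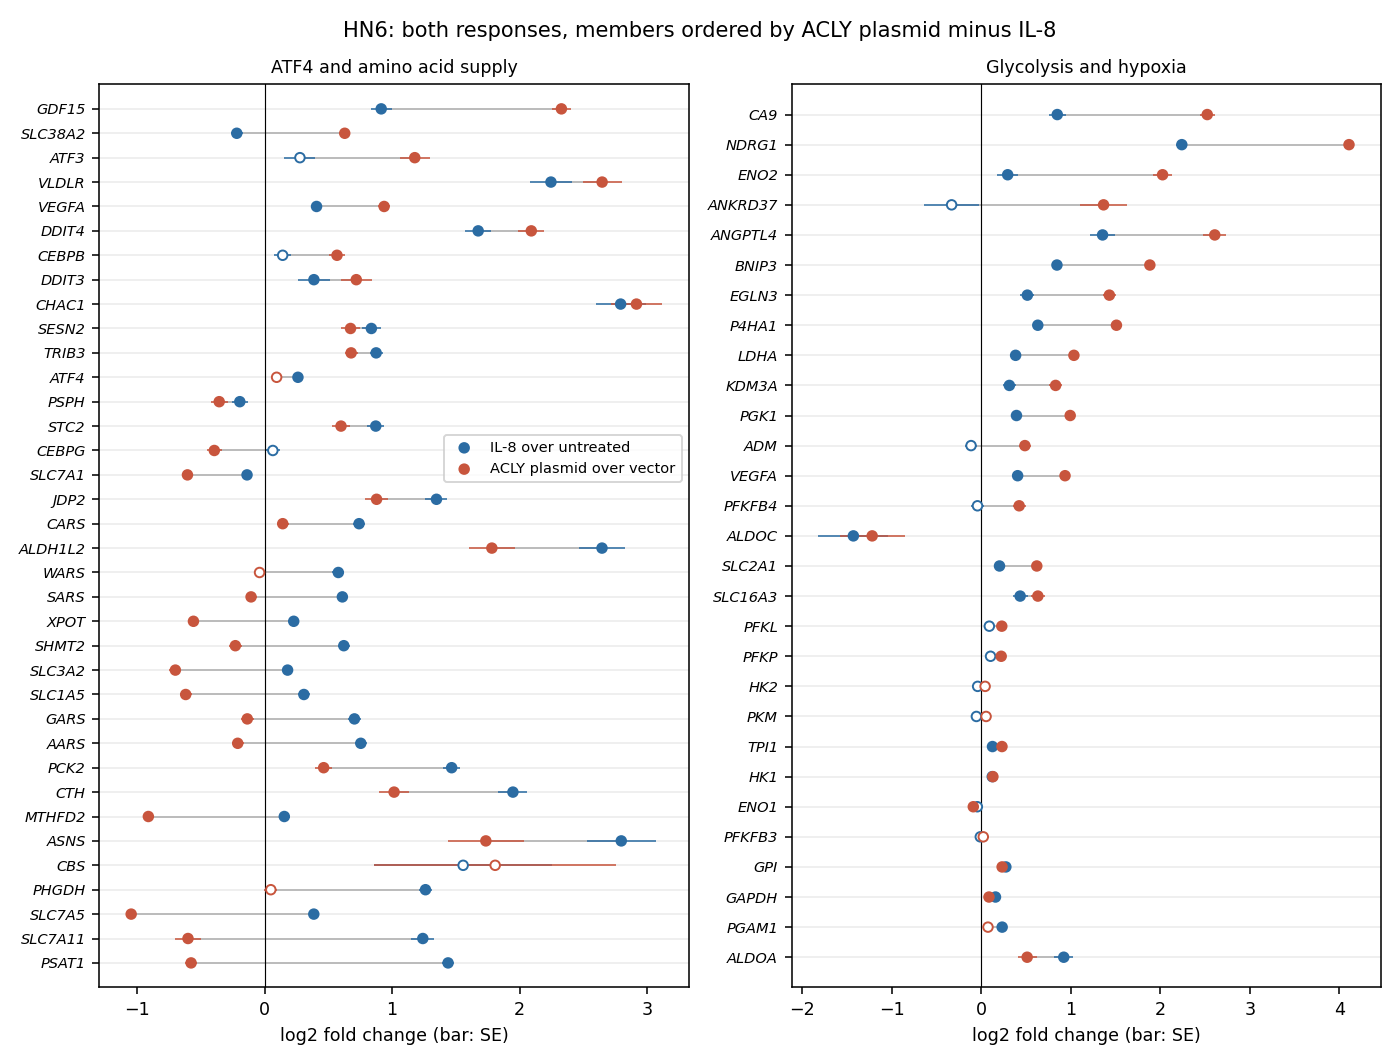
Log2 fold change of each tested member of the ATF4 list (left, 36 genes) and the glycolysis and hypoxia list (right, 29 genes) under IL-8 (over untreated, blue) and the ACLY plasmid (over vector, red), with the standard error as a bar, filled points for an edgeR adjusted p under 0.05, and genes ordered by the direct difference. In the lower part of the left panel blue lies right of 0 and red mostly near or left of it, while on the right red exceeds blue in the upper members, and both lie above 0 for most of these, though not for ANKRD37, whose blue point is below 0.

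NRF2 and antioxidant genes, which overlap the ATF4 list in SLC7A11, had 18 lower and 5 higher with the ACLY plasmid of 26, with a median log2 of -0.34. IL-8 raised 13 and lowered 5, and the plasmid raised 7 and lowered 16. AKR1C1, an aldo-keto reductase, was at 12.5, 11.5 and 10.5 CPM with IL-8 and 2.09, 2.79 and 1.94 CPM with the ACLY plasmid, without overlap. Its direct log2 difference was -2.34 ± 0.18 (SE; edgeR adjusted p = 3.43e-13), though AKR1C1, AKR1C2 and AKR1C3 are near copies whose reads may have been shared. TXNRD1, TXN and NQO1, of thioredoxin and quinone reduction, were lower (log2 -0.58, -0.68 and -0.52). TXNIP, an inhibitor of thioredoxin, was instead higher, at 343, 336 and 327 CPM with the ACLY plasmid against 102, 98.0 and 106 CPM with IL-8. TXNIP differed by log2 1.72, with 1.71 over vector and no call for IL-8 (0.03). HMOX1, heme oxygenase, rose under both, by log2 2.41 with the plasmid and 0.52 with IL-8.

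Glycolysis and hypoxia genes rose under both treatments, and further with the ACLY plasmid. Of 29 tested (30 listed), 23 rose and 2 fell with the plasmid, and 19 rose and 1 fell with IL-8. Directly, 17 were higher and 4 lower with the plasmid, with a median log2 of 0.43, the lower count being 1 when all 36 libraries shared 1 fit and 2 in the difference of responses. NDRG1, a stress gene turned on by low oxygen, was at 405, 419.9 and 388 CPM with the ACLY plasmid, 101, 101 and 97.5 CPM with IL-8, 23.4, 22.9 and 24.0 CPM with vector and 22.8, 18.7 and 21.7 CPM untreated. The ACLY plasmid libraries lay above the IL-8 libraries, and these above all controls. The log2 rises were 4.11 and 2.24, and the direct difference was 2.02 ± 0.05 (SE; edgeR adjusted p = 5.77e-26). CA9, a carbonic anhydrase of the cell surface, was at 80.5, 75.8 and 74.7 CPM against 18.4, 18.6 and 19.1 CPM, and ENO2, an enolase, at 36.5, 38.4 and 34.3 CPM against 9.91, 9.12 and 9.46 CPM. Their direct log2 differences were 2.04 and 1.94. BNIP3, P4HA1, LDHA, PGK1 and VEGFA, targets of the hypoxia factor HIF-1, were higher by log2 1.13, 0.96, 0.61, 0.59 and 0.55. Other enzymes of the pathway did not rise above the IL-8 level. PKM and ENO1 were not called, at log2 0.07 and -0.04, and GAPDH and PGAM1 were lower (log2 -0.13 and -0.15). The core letters of the HIF site, ACGTG on either strand, occurred in 13 of 27 matched promoters of the list (48.1%) and in 5900 of 27305 of all promoters (21.6%).

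Most heat shock chaperones fell under both treatments, and most were lower with the ACLY plasmid than with IL-8. Among 20 heat shock chaperones, 16 were lower and 1 higher with the ACLY plasmid than with IL-8, with a median log2 of -0.60. The plasmid lowered 17 and raised 1, and IL-8 lowered 14 and raised none. FKBP4, a partner of HSP90, was at 79.9, 83.3 and 76.9 CPM with the ACLY plasmid, 158, 151 and 162 CPM with IL-8 and 212 and 218 CPM in vector and untreated cells. The log2 difference was -0.97 ± 0.05 (SE; edgeR adjusted p = 8.49e-18). The mitochondrial chaperonin HSPD1 was lower (log2 -0.87) and so were the cytosolic HSP90AB1 and HSPA8 (log2 -0.63 and -0.62). HSPA1A, which shares its sequence with HSPA1B and is uncertain for that reason, was lower (log2 -0.73). HSPB1, a small heat shock protein, was the 1 member that was higher (log2 0.45), a call lost when all 36 libraries shared 1 fit. Folding genes of the endoplasmic reticulum rose under both, 17 of 24 with each treatment, and divided in the direct comparison, with 7 higher and 12 lower and a median of -0.11. Over all genes the direct shares were 26.2% higher and 26.4% lower. The chaperone HSPA5 (BiP) was at 688, 708 and 688 CPM with the ACLY plasmid against 991, 965 and 998 CPM with IL-8, lower (log2 -0.50), and MANF and SDF2L1 were lower (log2 -0.50 and -0.74). The sensor gene ERN1 and the phosphatase subunit PPP1R15A, which ends the translation block, were higher by log2 0.39 and 0.55.

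Cell cycle genes fell in both and further with the ACLY plasmid. The plasmid lowered all 30 mitosis and spindle genes and IL-8 lowered 29 of them, none rose under either, and in the direct comparison 23 were lower with the plasmid and none higher, with a median log2 of -0.41. MKI67, the proliferation marker, fell in both responses, with log2 changes of -0.87 and -0.84, and was at 552, 534 and 522 CPM against 551, 584 and 570.1 CPM, with overlap. Its direct log2 difference was -0.08 ± 0.05 (SE; edgeR adjusted p = 0.171), which passed the threshold without vector replicate 3, with the 6 libraries alone or with no filter. CDC20, an activator of the anaphase complex, was at 172, 180.2 and 176 CPM against 348, 340.4 and 347 CPM, without overlap, and lower (log2 -0.97). The kinase AURKB and the survivin gene BIRC5 were lower (log2 -0.81 and -0.70).

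DNA replication and nucleotide supply separated the treatments further, with 28 of 30 lower with the ACLY plasmid, none higher, and a median log2 of -0.67. The plasmid lowered 29 and IL-8 lowered 17. CDC6, which loads the replicative helicase, was at 112, 116 and 109 CPM with the ACLY plasmid and at 226, 221 and 229 CPM with IL-8, against 225, 227 and 217 CPM with vector and 229, 233 and 226 CPM untreated. The plasmid libraries lay below all others, while the IL-8 libraries overlapped the controls. CDC6 stood 2.00 times higher with IL-8 than with the ACLY plasmid (edgeR adjusted p = 1.39e-19). ORC1, of the origin recognition complex, was lower (log2 -1.05), and UHRF1, which keeps DNA methylation, was lower (log2 -0.89). The helicase subunits MCM2 to MCM7 were lower (log2 -0.83, -0.78, -0.71, -0.75, -0.76 and -0.62) in that order.

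Of 14 tested G1 cyclins and CDK inhibitors (15 listed) 5 were higher and 4 lower, near the shares over all genes. CCND1, cyclin D1, was at 886, 918 and 888 CPM with the ACLY plasmid and 2149, 2172 and 2175 CPM with IL-8, without overlap, with a direct log2 difference of -1.27 ± 0.04 (SE; edgeR adjusted p = 9.46e-24). The CDK inhibitors CDKN1A and CDKN2B were higher by log2 1.25 and 1.31. CDKN1A was at 299.7, 298 and 290.0 CPM against 124, 122 and 126 CPM, with log2 changes of 1.01 over vector and -0.24 under IL-8. Among 25 p53 targets, 10 were higher and 3 lower with the plasmid, with a median of 0.14, beside 26.2% and 26.4% over all genes. In the difference of responses 7 were higher and 1 lower, beside 17.6% and 18.6% over all genes. The direct lower count was also 1 without ACLY plasmid replicate 1 or IL-8 replicate 1. TP53INP1, a stress-induced regulator of p53, was at 19.0, 20.8 and 21.4 CPM against 3.92, 4.82 and 3.66 CPM and higher by log2 2.30. BBC3, which encodes the death protein PUMA, was higher by log2 1.44. The nuclease gene AEN was lower (log2 -1.29), and BAX and GADD45A were not called (log2 -0.05 and 0.06).

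Of 29 tested immediate early and ERK feedback genes (31 listed), 14 were higher and 7 lower with the ACLY plasmid, with a median log2 of 0.18. The shares over all genes were 26.2% higher and 26.4% lower. EGR1, a zinc finger factor that growth signals turn on within minutes, was at 78.7, 75.2 and 74.1 CPM with the ACLY plasmid and 12.3, 12.5 and 12.2 CPM with IL-8, against 7.75, 8.39 and 7.39 CPM and 9.01, 10.8 and 9.04 CPM in vector and untreated cells. The plasmid libraries stood far above the rest. The direct log2 difference was 2.62 ± 0.08 (SE; edgeR adjusted p = 5.98e-24). FOS was at 13.1, 13.7 and 14.1 CPM against 3.44, 3.41 and 2.59 CPM, with log2 changes of 1.53 over vector and -0.95 under IL-8. DUSP1, a phosphatase of MAP kinases, and JUNB were higher by log2 1.57 and 1.04. FOSL1, which encodes FRA-1, went the other way at 87.7, 95.4 and 88.2 CPM against 275, 289 and 274 CPM, a direct log2 difference of -1.63 ± 0.05 (SE). ETV4 and ETV5, ETS factors downstream of ERK, fell with the plasmid and rose with IL-8, and were lower (log2 -1.03 and -0.69). MYC fell under both and was lower (log2 -0.44). In the EGFR family, 5 of 12 tested genes (13 listed) were higher and 3 lower, beside the same shares over all genes. The ligand genes EREG and HBEGF were higher by log2 1.28 and 0.69, and NRG1 and TGFA were lower (log2 -1.61 and -0.65). EGFR itself was not called (log2 -0.03; edgeR adjusted p = 0.511).

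Mesenchymal and invasion genes were mostly higher with the ACLY plasmid, 18 of 27 tested (30 listed) against 3 lower, with a median log2 of 0.47. The plasmid raised 18 and lowered 5, and IL-8 raised 8 and lowered 9. MMP7, a matrix protease, was at 57.7, 60.1 and 58.0 CPM with the ACLY plasmid and 13.6, 14.9 and 13.9 CPM with IL-8, while vector and untreated libraries were at 44.8, 46.3 and 44.8 CPM and 43.9, 41.0 and 42.1 CPM. Here the IL-8 libraries stood apart below the controls, and the direct log2 difference was 2.05 ± 0.07 (SE; edgeR adjusted p = 1.82e-22), with 0.37 over vector and -1.58 under IL-8. FN1, fibronectin, and TNC, tenascin C, split more evenly. FN1 was at 3698, 3714 and 3448 CPM against 1197, 1218 and 1262 CPM, with log2 changes of 0.89 over vector and -0.71 under IL-8, and TNC changed by 0.82 and -0.64. The integrin gene ITGB6, the urokinase PLAU and its receptor PLAUR were higher by log2 1.40, 1.27 and 1.03. VIM, the intermediate filament vimentin, fell under both, with log2 changes of -0.73 with the plasmid and -1.27 with IL-8. The receptor kinase AXL was lower (log2 -0.87), with no call for IL-8 (log2 0.00).

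Of 28 squamous differentiation genes 17 were tested, and 11 were higher and 1 lower with the ACLY plasmid, with a median log2 of 1.00. In the difference of responses 7 were higher and none lower. Levels were low, and with a mean of at least 5 CPM required the higher count was 5. S100A8 was at 20.9, 19.8 and 21.9 CPM against 3.34, 3.25 and 2.65 CPM and S100A9, its partner in calprotectin, at 163, 169.8 and 169.6 CPM against 56.3, 50.1 and 50.3 CPM. Neither pair of groups overlapped, and the direct log2 differences were 2.76 and 1.68 (edgeR adjusted p = 1.09e-18 and 1.10e-15). CALML5, a calcium-binding protein of the epidermis, was higher by log2 1.85. Among squamous epithelial markers, all 12 were tested, and 5 were higher and 3 lower, beside 26.2% and 26.4% over all genes. KRT5 at 744, 731 and 739.8 CPM and 642, 631 and 583 CPM and TP63 at 134, 135 and 135 CPM and 109, 113 and 113 CPM were well measured in both groups, whereas KRT14 was near 0, at 0.447 and 0.732 CPM. KRT17, a keratin of squamous cells with near copies in the genome, was higher with the plasmid by log2 1.95, and KRT18, a simple-epithelium keratin, lower (log2 -0.66).

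Interferon-stimulated genes were higher with the ACLY plasmid in 18 of 30 tested (34 listed) and lower in 3, with a median log2 of 0.40, against 13 and 0 in the difference of responses. STAT2, which carries the interferon signal, was at 142, 138 and 135 CPM against 62.6, 63.0 and 68.2 CPM, with a direct log2 difference of 1.10 ± 0.05 (SE; edgeR adjusted p = 5.30e-18). IFI27 was at 7.57, 6.56 and 6.47 CPM against 1.32, 1.47 and 1.18 CPM, with log2 changes of 0.90 over vector and -1.70 under IL-8. ISG15, IFIT1 and MX1, common members of the response, were not called, at log2 -0.09, 0.18 and 0.14. The interferon genes IFNB1 and IFNL1 did not pass the filter on low counts.

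Markers of other cells were mostly low, and those tested were higher with the ACLY plasmid or not called. Of 11 fibroblast markers 6 were tested and 3 were higher with the ACLY plasmid (1 in the difference of responses), with summed levels of 69.0 to 76.7 CPM against 40.0 to 43.9 with IL-8, 28.9 to 32.7 with vector and 25.0 to 28.4 untreated. COL1A1 made up most of it (41.2, 46.2 and 44.5 CPM against 21.4, 21.8 and 20.6 CPM), and the defining markers COL1A2, COL3A1, DCN, PDGFRA and THY1 did not pass the filter. Of 10 leukocyte and endothelial markers 5 were tested and all 5 were higher directly, 2 in the difference of responses, with summed levels of 26.1 to 28.2 CPM against 15.4 to 17.4 with IL-8, 13.7 to 16.5 with vector and 13.1 to 15.5 untreated, and 1 was higher where a mean of at least 5 CPM was required. Among those tested, CDH5 was at 15.5, 14.1 and 17.0 CPM with the ACLY plasmid against 10.6, 9.90 and 9.41 CPM with IL-8. CD14 was at 6.10, 6.02 and 4.78 CPM against 4.40, 4.30 and 3.55 CPM. CDH5 was called in the difference of responses (log2 0.61) and CD14 was not (log2 0.30). PTPRC, FCGR3A, KDR and VWF did not pass the filter. The part of these low levels in the inflammatory and matrix genes above was not tested.

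The 10 genes with the largest log2 differences in favour of the ACLY plasmid, by the rule for named genes, were ACLY, VNN1, SLC28A3, TNFSF14, S100A8, CXCL6, NLRP7, CXCL8, ATG9B and CASP14. VNN1, which hydrolyses pantetheine and so feeds into coenzyme A turnover, was at 19.9, 20.4 and 23.7 CPM against 2.70, 2.25 and 1.80 CPM, with a direct log2 difference of 3.24 ± 0.16 (SE; edgeR adjusted p = 3.36e-18). SLC28A3, a nucleoside carrier, and TNFSF14, the cytokine LIGHT, were higher by log2 2.96 and 2.91, and NLRP7, an inflammasome family gene, by 2.72. CASP14, a caspase of cornifying skin, and ATG9B, of autophagy, rose under both, by log2 3.81 with the plasmid and 1.59 with IL-8, and by 3.94 and 1.56. The 10 at the other end were SLC7A2, AKR1C1, ZNF300, KCNG1, KCTD15, LPAR3, CXorf57, CA2, RNF182 and SRPX. SLC7A2, a carrier of cationic amino acids, was at 0.904, 0.591 and 0.398 CPM against 4.88, 5.40 and 5.46 CPM, a direct log2 difference of -3.06 ± 0.24 (SE; edgeR adjusted p = 7.31e-13), with no call for IL-8 (log2 0.13). ZNF300, a zinc finger gene, was lower (log2 -2.30), with a rise under IL-8 of 2.22. LPAR3, a receptor of lysophosphatidic acid, and CA2, a carbonic anhydrase, were lower (log2 -2.17 and -2.09). All 20 genes had groups of 3 libraries that did not overlap, which the rule required.

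**Figure D5:**
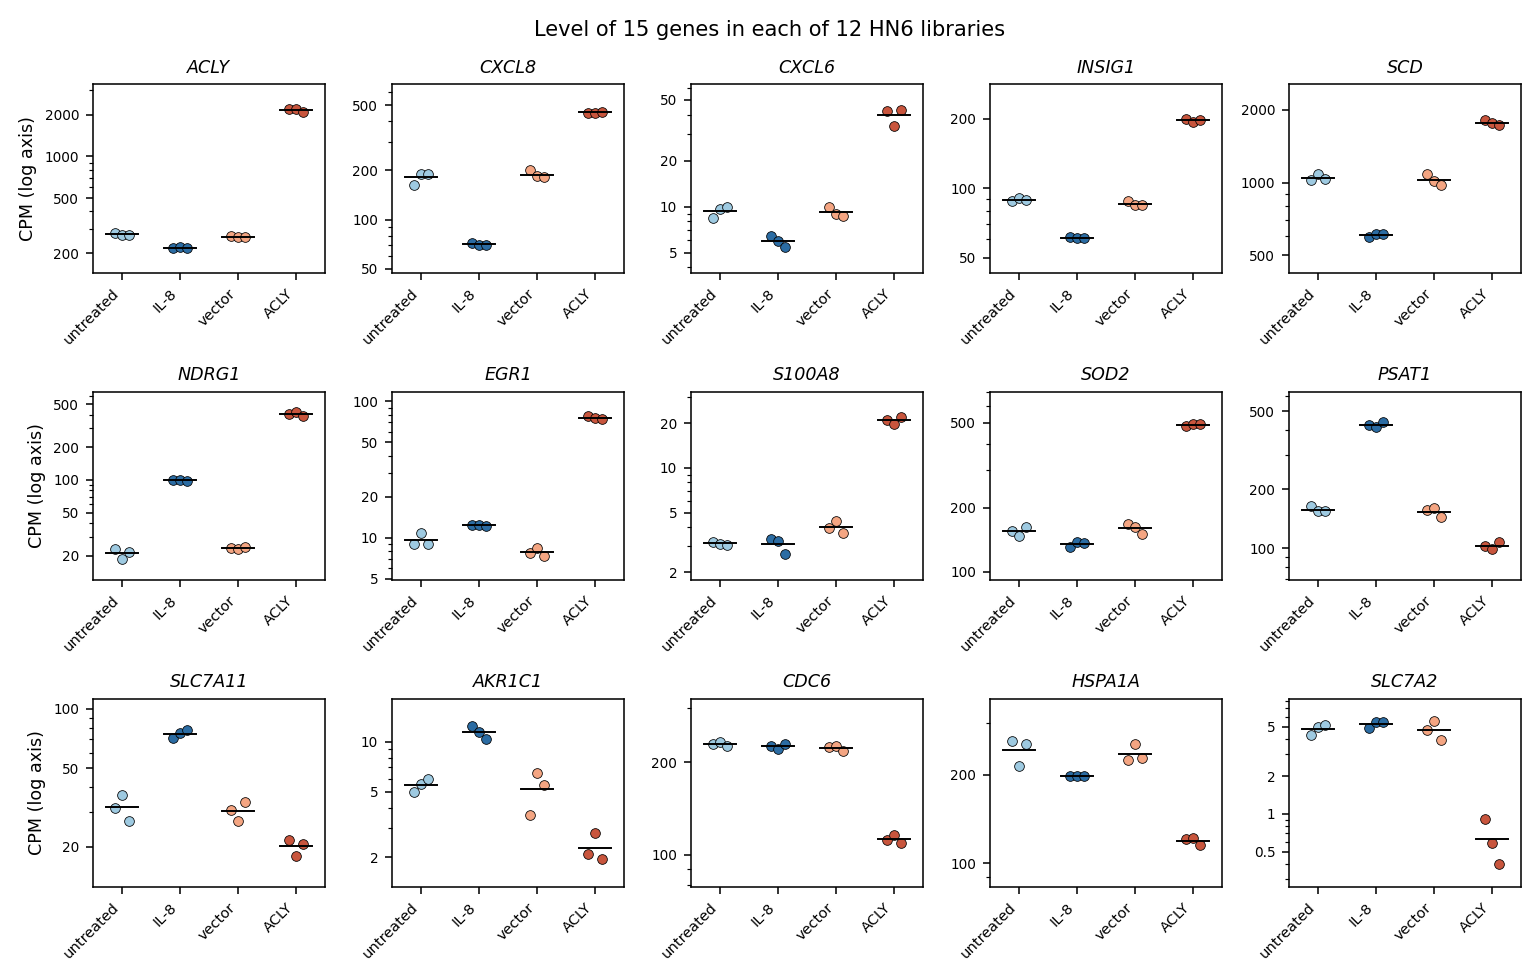
Level (CPM with TMM factors, log axis) of 15 genes in each of the 12 HN6 libraries, 1 point per library, with the group mean as a line, for untreated, IL-8, vector and ACLY plasmid. The untreated and vector groups are close in each panel. CXCL8, INSIG1 and SCD lie above both controls with the ACLY plasmid and below them with IL-8, PSAT1 and SLC7A11 do the reverse, and NDRG1 steps up from the controls to IL-8 to the ACLY plasmid.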

How the data were processed

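RNA-seq counts of 12 HN6 libraries were used, 3 in each of 4 groups taken from the labels. The authors deposited whole-number counts per gene with gene lengths and no normalization. The submitters' processing notes list hg38 as the build, HISAT2 2.0.5 and CASAVA among the tools, and also DESeq2 and featureCounts 1.5.0-p3. Per the labels' protocols the RNA was poly-A selected and primed with random hexamers. How strand and multiply matching reads were counted, and with which annotation, is not given in the sources used here. Overlapping and near-identical genes are therefore uncertain. All 58735 identifiers had the start and end of GENCODE 29, whose names were used, since 27 names in the table differed.

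The deposited counts were fitted with a robust quasi-likelihood model of 4 group means (8 residual degrees of freedom) in edgeR 4.0.16, under R 4.3.3 with limma 3.58.1. Libraries were scaled by TMM, and filterByExpr removed low genes (minimum count 10, total 15) except CXCL8, ACLY and both IL-8 receptors. Two-sided p-values were adjusted by Benjamini-Hochberg over 16698 genes, with a threshold of 0.05, and the fit was tested on simulated data. HN4 and Cal27 libraries stayed out of the fit except as an alternative. With 3 against 3, an exact permutation test cannot go below 0.1. Alternatives were DESeq2 1.42.0, other scaling, filters, sample sets, a replicate block and each library left out. Levels are CPM with TMM factors.

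The comparison, gene lists, motifs and rule for named genes were chosen with earlier results of these data known. The rule named 16 fixed genes, the 10 largest direct differences each way among protein-coding genes (mean log2 CPM of at least 1, adjusted p under 0.05 directly and in the difference of responses, no overlap of the 3 and 3 libraries), protein-coding genes called directly and between the controls and not in the difference of responses, and up to 3 called members of each of 30 lists, largest first. Other list members given with values were picked after their values were seen. Some list members enter the counts but are not reported here by name.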

Additional observations from a re-analysis of the deposited data

How the results depend on the processing

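Of 22 alternative settings, the 2-fold and protein-coding ones gave no new value for a gene. None of the others turned the direction of a named gene called in the main fit. A change of sign in a value called in neither fit was not counted. For the direct comparison of the 114 genes named by the rule, 2228 of 2260 recomputed values kept their side of the threshold. Of the rest, 29 lost the call and 3 gained it. Over both comparisons 36 of 4406 lost it and 21 gained it. Of 1200 recomputed list counts 35 moved by more than 1.5 times.

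Requiring 2-fold left 1493 genes in the direct comparison and 1104 in the difference of responses, by construction, with 73% of the former higher with the ACLY plasmid. The difference of responses gave 3881 with all 36 libraries in 1 fit, and the cause was not tested. Leaving out 1 library gave 7935 to 9151 direct calls, 5476 to 6042 for the difference of responses, and 1 to 14 between vector and untreated, the ends being without vector replicate 3 and vector replicate 2. That control count was 1 with the 6 libraries of the groups alone, 0 with all 36 libraries, 0 at 2-fold, 8 with DESeq2, 2 with a mean of at least 5 CPM, 24 with no filter and 2 with protein-coding genes alone. The cause was not tested. Other scalings moved the median of all genes by less than 0.1 on the log2 scale, and the share of direct calls that were higher stayed between 45.2% and 53% outside the 2-fold setting.

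With the replicate number as a block, 8546 genes were called directly, 5798 in the difference of responses and 2 between the controls. Same-numbered ACLY plasmid and IL-8 libraries did not deviate together (r from -0.0023 to 0.0261, against -0.0335 to 0.0227 for different numbers), so the numbers were not taken to pair samples. Over all groups r ran wider, from -0.235 to 0.0989 for the same number and from -0.107 to 0.272 for different numbers. The values largest in size, 0.272 and -0.235, were for untreated replicate 2 with vector replicates 1 and 2. Why control libraries of the 2 experiments deviated together was not tested.

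Counts of mitochondrial mRNAs, of lower p53, lipid droplet and squamous differentiation genes, and of higher leukocyte markers rested on 5 or fewer genes and were among those that moved. Depth limits genes near 0.154 to 0.174 CPM, CXCR1 and CXCR2 among them.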

Other observations

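Genes for the formation of small extracellular vesicles were mostly higher with the ACLY plasmid than with IL-8. Of 23 tested (24 listed), 14 were higher and 3 lower, with a median log2 difference of 0.17, beside 26.2% and 26.4% over all genes. In the difference of responses the counts were 10 and 1, beside 17.6% and 18.6% over all genes. The plasmid raised 13 and lowered 2, and IL-8 raised 2 and lowered 7. SDCBP, the syntenin that sorts cargo into vesicles, was at 352, 354 and 359.7 CPM with the ACLY plasmid against 217, 209.5 and 224 CPM with IL-8, a log2 difference of 0.71 ± 0.04 (SE; edgeR adjusted p = 2.09e-15), with no call for IL-8 against untreated (0.02). The tetraspanin CD9 was at 353, 381 and 373 CPM against 236, 241 and 223 CPM, and neither gene's groups overlapped. RAB27B and RAB27A, which dock vesicles at the membrane, were higher by log2 0.69 and 0.48, and TSG101, of the ESCRT sorting machinery, by 0.61. RAB35, CD81 and VPS4A were lower (log2 -0.36, -0.21 and -0.27), though CD81 and VPS4A were not called in the difference of responses (-0.13 and -0.16).

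Of 20 tested TGF-beta family signals (22 listed), 6 were higher and 5 lower (5 and 3 in the difference of responses), near the 26.2% and 26.4% over all genes. FST, follistatin, which binds activin, fell under both and further with IL-8, with log2 changes of -0.61 and -1.55. INHBB, an activin subunit, fell with the plasmid and rose with IL-8 (-0.45 and 0.28), and TGFB2 was lower with the plasmid (log2 -0.59). LTBP1, which stores TGF-beta in the matrix, was at 0.508, 0.645 and 0.746 CPM against 2.28, 2.36 and 1.69 CPM. Of 9 tested genes associated with stem cells (13 listed), 3 were higher and 2 lower, again near the shares over all genes, and 1 each way in the difference of responses. The surface glycoprotein CD44 was higher by log2 0.15 and ITGA6, an integrin chain, lower (log2 -0.20). SOX2, PROM1, NANOG and LGR5 did not pass the filter on low counts.

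Among the 13 mitochondrially encoded mRNAs, 5 were higher and 2 lower with the ACLY plasmid, beside 26.2% and 26.4% over all genes. In the difference of responses the counts were 2 and 2, near the 17.6% and 18.6% over all genes. MT-CO1 and MT-CO2, of cytochrome oxidase, were higher by log2 0.36 and 0.39. Genes of complex I went both ways. MT-ND1 and MT-ND2 were lower (log2 -0.35 and -0.33), while MT-ND5 and MT-ND6 were higher by log2 0.40 and 0.42. Neither MT-ND5 nor MT-ND6 was called in the difference of responses (0.28 and 0.34). The mitochondrial share of all counts was above that of the other groups in each ACLY plasmid library, and its part was not tested. With all 36 libraries in 1 fit none of the 13 was called, and the higher count was 3 without ACLY plasmid replicate 2 or IL-8 replicate 1. The lower count ran from 0 to 4 over the settings tried.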
